A study of Homo sapiens with 6 samples.

Results

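The collagen and laminin chains of NCI-H1299 cells were compared between norepinephrine (NE) treated and control (Ctrl) cultures. Members were the rows of the gene table whose symbol is a numbered collagen α chain gene or a laminin α, β or γ chain gene, which gave 49 of 26025 genes. They comprised 10 fibrillar collagens, 8 basement membrane collagens, 11 laminin chains and 20 other collagens; chains with no row were not analysed here. NCI-H1299 is an established human line of non-small cell lung carcinoma, and RNA was sequenced from 3 Ctrl and 3 NE libraries of this single line. All cultures were starved in DMEM, for 8 to 12 h by the sample records and 12 h by the methods. They were then kept for 48 h in RPMI-1640 with 2% fetal bovine serum, with vehicle in Ctrl and with 10 µM NE in the NE group. The sample records name the vehicle both as DMSO and as PBS. The records do not say that the libraries of a group came from separate cultures, so the p-values measure the spread between these libraries.

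Each Ctrl library held 17373654 to 17979206 reads on genes, and each NE library 16852751 to 17325039. Ctrl replicate 3 stood apart: 7305 genes had no read there, compared with 4829 and 4833 in Ctrl replicates 1 and 2. Of the markers of the line, VIM was between 60813 and 78252 normalized counts in Ctrl and between 45300 and 58317 in NE libraries. KRT8, an epithelial keratin, was between 9793 and 14180 in Ctrl and between 5232 and 6448 in NE libraries. KRT18, also an epithelial keratin, was between 17852 and 24941 in Ctrl and between 6679 and 7602 in NE libraries. The part of these genes in the results below was not tested. Fibroblasts are the usual source of fibrillar collagen, and the 5 of 6 fibroblast markers with a row summed to between 0.98 and 25.1 normalized counts in Ctrl and between 12.8 and 31.6 in NE libraries. The 4 endothelial markers summed to 45.6 to 87.2 in Ctrl and 30.0 to 64.2 in NE libraries, and the 2 of 4 leukocyte markers with a row to at most 6.28.

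Collagens are trimers of α chains wound into a triple helix. Fibrillar collagens build the fibrils of connective tissue, whereas type IV collagen forms the sheet-like network of basement membranes. Laminins are cross-shaped trimers of 1 α, 1 β and 1 γ chain that polymerise at the cell surface and bind integrins and dystroglycan. Laminins with the β3 chain, encoded by LAMB3, anchor epithelia to the basement membrane through hemidesmosomes, together with the transmembrane collagen encoded by COL17A1 and the integrin α6β4. Adrenergic receptors can signal through cAMP to the factor CREB, which binds the cAMP response element (CRE) in promoters.

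To show the start regions of chains that changed at least 2-fold, the 250 bases before the RefSeq start (GRCh38.p14) are given 5′ to 3′ for LAMB3 and COL17A1, which fell and encode parts of the hemidesmosomal anchor, and for COL4A5 and LAMA4, which rose. Capitals mark the CRE half-site TGACG on either strand, which reads CGTCA on the other strand. The LAMB3 window is chr1:209652426-209652675 on the minus strand. The COL17A1 window is chr10:104085881-104086130 on the minus strand. The COL4A5 window is chrX:108439588-108439837 on the plus strand and lies between the divergent starts of COL4A5 and COL4A6, which are 341 bases apart in GENCODE v44. The LAMA4 window is chr6:112254568-112254817 on the minus strand.
LAMB3: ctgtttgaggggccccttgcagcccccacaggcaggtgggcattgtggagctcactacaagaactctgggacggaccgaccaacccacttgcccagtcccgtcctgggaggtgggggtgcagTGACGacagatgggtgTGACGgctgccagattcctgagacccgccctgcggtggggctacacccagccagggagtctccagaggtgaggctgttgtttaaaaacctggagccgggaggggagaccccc
COL17A1: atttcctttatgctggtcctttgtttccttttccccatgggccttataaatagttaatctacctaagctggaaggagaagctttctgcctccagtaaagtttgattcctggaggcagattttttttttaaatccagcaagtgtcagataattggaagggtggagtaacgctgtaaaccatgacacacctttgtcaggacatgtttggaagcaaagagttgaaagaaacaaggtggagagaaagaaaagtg
COL4A5: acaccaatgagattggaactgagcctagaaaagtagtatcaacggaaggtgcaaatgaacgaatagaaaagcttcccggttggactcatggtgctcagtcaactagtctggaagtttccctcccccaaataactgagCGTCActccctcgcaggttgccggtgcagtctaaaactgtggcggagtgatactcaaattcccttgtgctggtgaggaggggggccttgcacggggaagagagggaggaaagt
LAMA4: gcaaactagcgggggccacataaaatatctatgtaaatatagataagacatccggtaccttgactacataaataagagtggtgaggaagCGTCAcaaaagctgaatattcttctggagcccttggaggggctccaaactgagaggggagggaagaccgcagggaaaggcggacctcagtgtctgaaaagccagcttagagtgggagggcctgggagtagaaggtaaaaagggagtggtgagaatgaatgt

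The half-site occurred at -128 to -124 and at -112 to -108 of LAMB3, counted from the RefSeq start, at -113 to -109 of COL4A5 and at -161 to -157 of LAMA4. It was not found in the COL17A1 window. RefSeq windows were used for 37 of the 49 members, and some of these genes had several, so that there were 49 windows. Windows on chromosome 8, where COL14A1 lies, were left out for members but not for the shares over all promoters. TGACG was found in 12 of the 49 windows, which belonged to 10 of the 37 genes. It was found in 2 of the 6 genes with a window that rose and in 3 of the 8 that fell. None of the 37 genes held the full site TGACGTCA, which contains the half-site. The motif TGANTCA of AP-1 factors was found in 3 of the 37 genes. Over all 35116 promoter windows of the same length, 21.2% held TGACG, 1.65% TGACGTCA and 6.57% TGANTCA. These shares are per window, whereas a gene with several windows was counted if any of them matched. Only the 12 of 49 windows with TGACG are counted per window, as the shares are. All are letter matches and not measured binding.

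Of the 49 members, 27 had a mean of at least 10 normalized counts over the 6 libraries and were tested. A normalized count is the number of reads on a gene divided by the size factor of its library. At a Benjamini-Hochberg adjusted p under 0.05 from limma over 15013 genes, 6 of the 27 rose and 12 fell with NE. Over all tested genes the shares were 24.6% higher and 25.5% lower. With a change of at least 2-fold as well, 2 members were upregulated and 6 downregulated, against 7.47% and 6.55% of all tested genes. The 2 upregulated members were COL4A5 and LAMA4. LAMB3, LAMC3, COL16A1, COL17A1 and COL1A1 were among the downregulated members. The groups did not overlap in 23 of the 27 members, with NE higher in 9 and lower in 14, against 29.7% and 28.9% of all tested genes. The median log2 fold change was -0.02 for the 10 tested laminin chains and 0.26 for the 5 tested basement membrane collagens. It was -0.77 for the 4 tested fibrillar collagens and -0.72 for the 8 tested other collagens, against 0.01 over all tested genes. The 0.26 is the value of COL4A4, a gene with few counts that did not pass the test (limma, adjusted p = 0.746) and was at -0.09 from DESeq2.

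**Figure D1:**
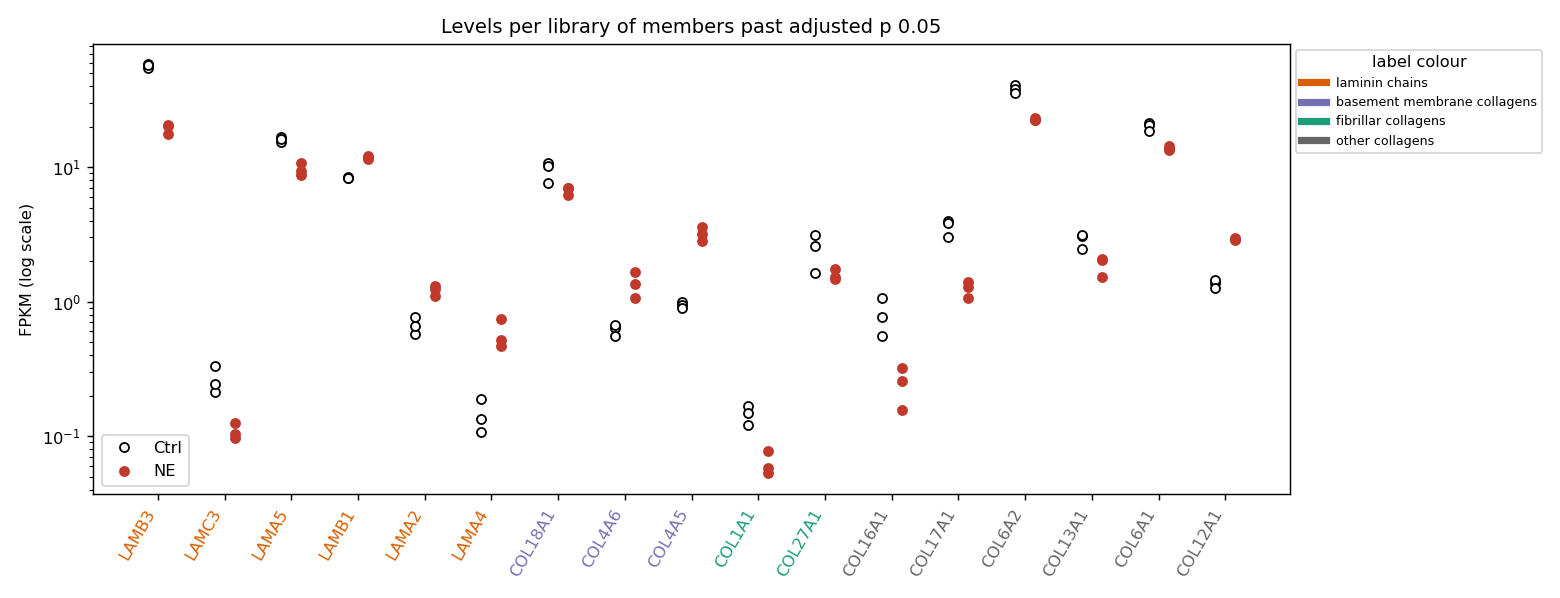
Level per length (FPKM, recomputed from the reads, log axis) of 17 members with an adjusted p under 0.05, 1 point per library, with Ctrl as open and NE as filled points. LAMB3 was at 56.9 FPKM in Ctrl and at 19.5 FPKM in NE libraries, and COL4A5 at 0.94 and 3.21 FPKM.

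LAMB3, which encodes the β3 chain, was the highest laminin chain in Ctrl by FPKM, though not by normalized counts. It had the largest fall of the tested laminin chains. LAMB3 (ENSG00000196878), on chromosome 1 from 209614870 to 209652425, had 4909, 4633 and 4732 normalized counts in Ctrl and 1626, 1544 and 1298 in NE libraries. Every NE library was under every Ctrl library by a wide margin, with means of 4758 ± 139.9 (SD, n = 3) and 1489 ± 171 (SD, n = 3). On the log2 scale LAMB3 changed by -1.68 with a standard error of 0.11, or 3.21-fold lower (limma, adjusted p = 2.33e-05). In these bulk samples, fewer cells with a transcript and less of it per cell cannot be told apart. Only 0.85% of all tested genes had a lower log2 fold change than LAMB3.

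LAMA3 encodes the α3 chain, a partner of the β3 chain, and did not fall with it. It had 75.4, 102 and 118 normalized counts in Ctrl and 135, 128 and 154 in NE libraries. The NE libraries lay above the Ctrl libraries, but the log2 fold change of 0.52 did not pass the test (standard error 0.21, adjusted p = 0.0629 from limma). Without Ctrl replicate 3 it was 0.66 with an adjusted p of 0.00972 from limma. Per length LAMA3 was low, at 0.377 ± 0.088 FPKM in Ctrl (SD, n = 3), against 56.9 for LAMB3. LAMA3 has several start sites and transcripts that a count per gene does not separate.

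Among the other α chains, LAMA4 rose the most. LAMA4 (ENSG00000112769), a chain of endothelial and mesenchymal basement membranes on chromosome 6 from 112107931 to 112254939, had 40.8, 29.0 and 22.5 normalized counts in Ctrl and 152, 91.0 and 97.8 in NE libraries. The groups were clearly apart although NE replicate 1 was higher than the other NE libraries, and the change was 1.85 ± 0.30 (SE) on the log2 scale (limma, adjusted p = 0.00111). LAMA2, the α2 chain typical of muscle, had 275, 319 and 356 normalized counts in Ctrl and 557, 476 and 539 in NE libraries. It rose by 0.73 on the log2 scale (adjusted p = 0.00265 from limma). LAMA5, the broadly expressed α5 chain of epithelia, had 4350.1, 4039 and 4059.9 normalized counts in Ctrl and 2637, 2202 and 1966 in NE libraries, and fell by 0.88 on the log2 scale (adjusted p = 0.000551 from limma). LAMA5 thus made up 93.1% ± 0.89 of the α chain FPKM in Ctrl and 80.2% ± 2.10 in NE libraries (SD, n = 3), and LAMA2 3.86% ± 0.59 and 10.1% ± 1.24.

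The β1 and γ1 chains, which are part of most laminins outside the epithelial type, were not lower with NE. LAMB1 had 2882, 2803 and 2725 normalized counts in Ctrl and 3824, 3569.98 and 3362 in NE libraries, and rose by 0.35 on the log2 scale (adjusted p = 0.0135 from limma). Leaving out Ctrl replicate 2 raised its adjusted p to 0.0549, and leaving out NE replicate 2 to 0.0600. LAMC1 had 2378, 2494 and 2586 normalized counts in Ctrl and 3250.01, 2795 and 2642 in NE libraries. Its log2 fold change of 0.22 did not pass the test (adjusted p = 0.128 from limma), although it did without Ctrl replicate 3, at 0.24 (adjusted p = 0.0375). LAMB2, the β2 chain, was at -0.26 on the log2 scale and did not pass either (adjusted p = 0.0707 from limma). LAMC3, a γ chain with few reads, had 34.6, 53.9 and 38.2 normalized counts in Ctrl and 14.8, 18.4 and 14.6 in NE libraries, and fell by 1.33 on the log2 scale (adjusted p = 0.00786 from limma).

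The make-up of the laminin β chain transcripts differed between the groups. LAMB3 accounted for 75.1% ± 0.40 of the β chain FPKM in Ctrl and 47.6% ± 1.52 in NE libraries (SD, n = 3), while LAMB1 went from 11.1% ± 0.32 to 28.8% ± 0.85. The shares of LAMB3 and LAMB1 did not overlap between the groups. These shares and those of the α chains rest on merged exons of all annotated transcripts, 4647 bases for LAMB3 and 18592 for LAMB1. For LAMA5 and LAMA2 the merged exons have 14291 and 26419 bases. Where merged exons are longer than the transcripts present, the share of a gene comes out too low. In normalized counts LAMB3 had means of 4758 in Ctrl and 1489 in NE libraries, and LAMB1 of 2803 and 3585. In all, the 11 laminin chains summed to 153 ± 4.47 FPKM in Ctrl and 89.4 ± 5.15 in NE libraries (SD, n = 3). FPKM are relative to all reads on genes, so fewer laminin transcripts and more of other transcripts cannot be told apart.

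**Figure D2:**
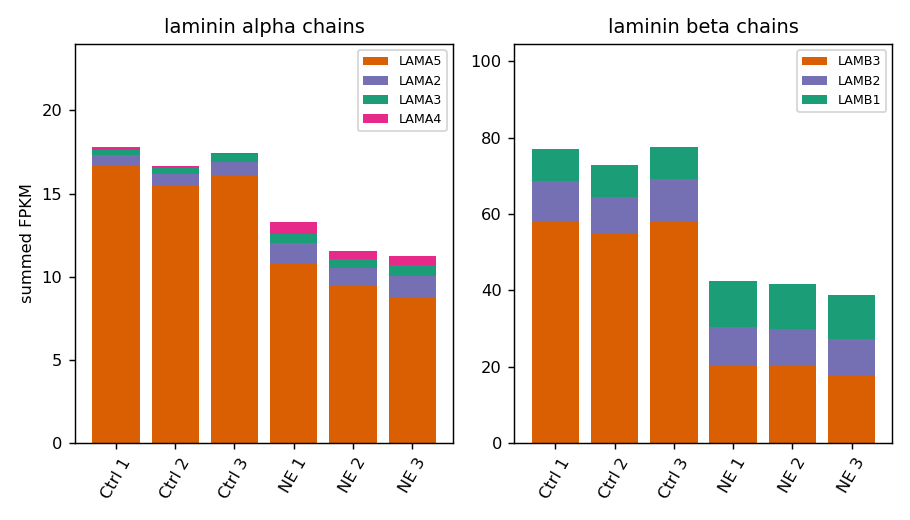
Summed FPKM of the laminin α and β chains in each of the 6 libraries, stacked by gene, with axes from 0; LAMB4, at 0 to 7 reads, is not drawn. LAMB3 fills 75.1% of the β bars in Ctrl and 47.6% in NE libraries, and LAMA5 93.1% and 80.2% of the α bars.

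Of the basement membrane collagens, the type IV chains COL4A5 and COL4A6 rose and COL18A1 fell. COL4A5 (ENSG00000188153), on chromosome X from 108439838 to 108697545, encodes the α5 chain of type IV collagen and had 214, 204 and 188 normalized counts in Ctrl and 574, 619 and 673 in NE libraries. All NE libraries lay far above Ctrl, with a change of 1.62 ± 0.13 (SE) on the log2 scale (limma, adjusted p = 5.91e-05), a level 3.07-fold higher. COL4A6, its head-to-head neighbour from 108155607 to 108439497 on the opposite strand, had 107, 93.3 and 109 normalized counts in Ctrl and 169, 205 and 244 in NE libraries. It rose by 0.98 on the log2 scale (standard error 0.18, adjusted p = 0.00226 from limma), just short of 2-fold, and from 0.85 to 1.12 when single libraries were left out. The ratio of the FPKM of COL4A5 to that of COL4A6 was 1.54 ± 0.18 in Ctrl and 2.39 ± 0.25 in NE libraries (SD, n = 3), with no overlap.

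The α1 and α2 chains, encoded by COL4A1 and COL4A2 and common to nearly all basement membranes, were hardly detected. COL4A1 had 4, 0 and 0 reads in Ctrl and 4, 0 and 2 in NE libraries. COL4A2 had 4, 2 and 0 reads in Ctrl and 0, 3 and 1 in NE libraries. At this depth no difference was detectable for either. COL4A3 and COL4A4, also a head-to-head pair, were low at means of 10.5 and 18.8 normalized counts over all libraries and did not pass the test (adjusted p = 0.939 and 0.746 from limma). COL18A1, a basement membrane collagen whose end fragment is endostatin, had 1653, 1566 and 1132 normalized counts in Ctrl and 1021, 967 and 822 in NE libraries. It fell by 0.62 on the log2 scale (adjusted p = 0.0108 from limma), and its adjusted p was 0.0510 without NE replicate 3. Of its exon bases, 18.5% are shared with SLC19A1 on the opposite strand, and the sources used here do not say that counting used strand, so its value is uncertain.

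The fibrillar collagens were low in these cells. COL27A1 was the highest of them at 2.46 ± 0.75 FPKM in Ctrl (SD, n = 3), and its normalized counts were 795, 667 and 405 in Ctrl and 363, 335 and 388 in NE libraries. Ctrl replicate 3 was close to the NE range, and per length, at 1.64 FPKM, it lay under NE replicate 3 at 1.76 FPKM. COL27A1 fell by 0.73 on the log2 scale (adjusted p = 0.0235 from limma). It fell by 1.01 without Ctrl replicate 3 (adjusted p = 8.49e-06), and it did not pass the test without any other single library, with log2 fold changes from -0.78 to -0.52 and adjusted p from 0.0532 to 0.0803. COL1A1, a chain of type I collagen, had 27.2, 19.7 and 23.5 normalized counts in Ctrl and 8.89, 7.75 and 11.0 in NE libraries. The groups did not overlap, and COL1A1 fell by 1.26 on the log2 scale (adjusted p = 0.0251 from limma). Without Ctrl replicate 1, Ctrl replicate 2, NE replicate 1 or NE replicate 2 its adjusted p was 0.102, 0.0544, 0.0555 and 0.0764 from limma. The other chain of type I collagen, COL1A2, had 3 reads in NE replicate 2 and 0 in the other libraries. COL5A2 and COL11A2 did not pass the test, with log2 fold changes of 0.65 and -0.82.

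Among the other collagens, COL17A1 fell, as LAMB3 did. COL17A1 (ENSG00000065618), the hemidesmosomal collagen on chromosome 10 from 104031286 to 104085880, had 509.99, 487 and 373 normalized counts in Ctrl and 168, 146 and 118 in NE libraries. The groups were well apart, with a change of -1.66 ± 0.18 (SE) on the log2 scale (limma, adjusted p = 0.000216), a level 3.16-fold lower. COL16A1 (ENSG00000084636), a fibril-associated collagen on chromosome 1 from 31652263 to 31704319, had 180.1, 131 and 90.2 normalized counts in Ctrl and 24.7, 38.7 and 46.6 in NE libraries. It had the largest fall of the tested members, at -1.83 on the log2 scale (standard error 0.32, adjusted p = 0.00164 from limma).

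Type VI collagen forms beaded filaments next to basement membranes from the products of COL6A1, COL6A2 and a further chain such as that of COL6A3. COL6A2 had 3951, 3703 and 3370.01 normalized counts in Ctrl and 2049, 1948 and 1935 in NE libraries. COL6A1, 93061 bases away on chromosome 21, had 2145, 2088 and 1824 in Ctrl and 1289.5, 1288 and 1163 in NE libraries. Both genes fell with no overlap, COL6A2 by 0.89 and COL6A1 by 0.69 on the log2 scale (adjusted p = 0.000233 and 0.000992 from limma). COL6A3 had 1 read in Ctrl replicate 1, 3 in NE replicate 2 and 0 elsewhere. COL6A2 was the highest collagen at 38.2 ± 2.43 FPKM in Ctrl and 22.6 ± 0.38 FPKM in NE libraries (SD, n = 3).

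COL12A1, a fibril-associated collagen, was the only other collagen that rose among the 8 tested. It had 472, 494 and 418 normalized counts in Ctrl and 922, 908 and 862 in NE libraries, with no overlap, and a change of 0.96 ± 0.12 (SE) on the log2 scale (limma, adjusted p = 0.000304). COL13A1, a transmembrane collagen, had 649, 651 and 497 normalized counts in Ctrl and 401, 289 and 376 in NE libraries, and fell by 0.76 (adjusted p = 0.00530 from limma). COL7A1, which forms the anchoring fibrils under hemidesmosomes, had 63.9, 51.8 and 57.8 normalized counts in Ctrl and 72.1, 72.6 and 82.2 in NE libraries. Its groups did not overlap, but the log2 fold change of 0.38 did not pass the test (adjusted p = 0.149 from limma).

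**Figure D3:**
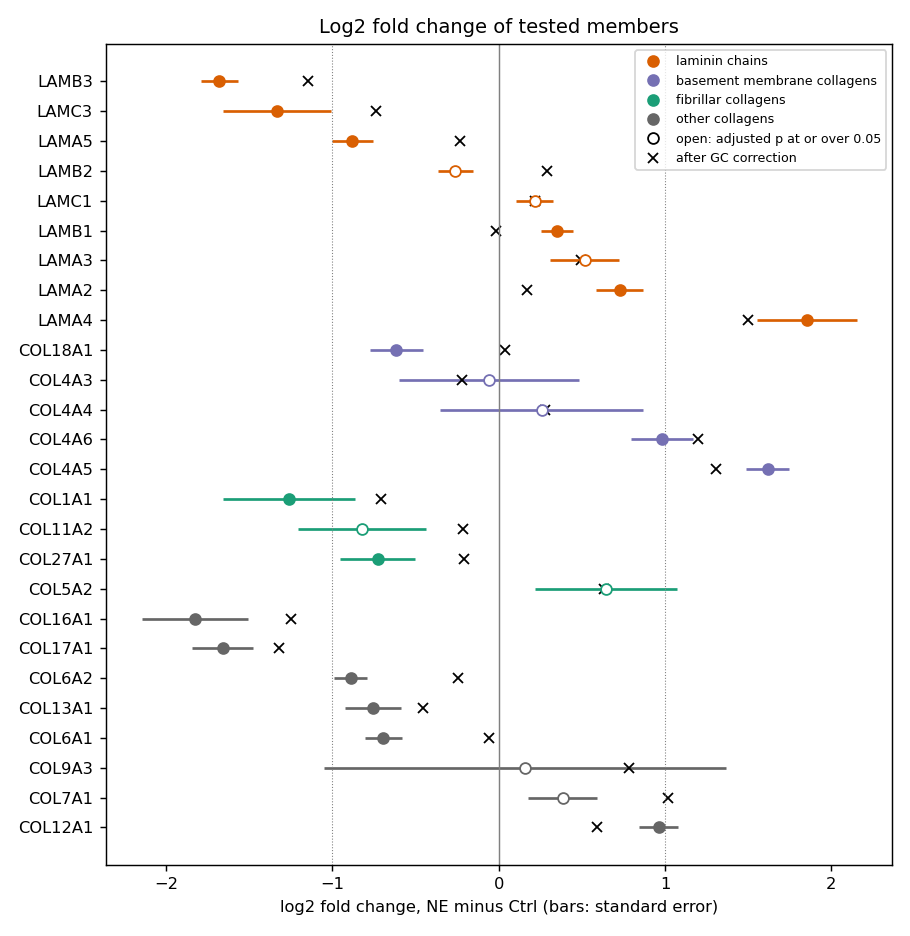
Log2 fold change (NE minus Ctrl) of 26 tested members with standard errors, coloured by class, with filled points for an adjusted p under 0.05 and crosses for the value after correction for GC content. LAMB3, COL16A1 and COL17A1 lie below -1 and COL4A5 and LAMA4 above 1 by both measures.

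Members with higher log2 fold changes had a lower GC content, as did genes in general. The Spearman correlation of log2 fold change with exonic GC content was -0.60 over the 27 members and -0.69 over 12581 protein-coding genes, both across genes of the same libraries. The same kind of trend separated Ctrl replicate 3 from the mean of the other Ctrl libraries, at -0.58, and its part in the differences with NE was not tested. When the trend with GC content was taken out of each library, 5 of the 27 members were higher and 5 lower at an adjusted p under 0.05 from limma, against 13.0% and 19.0% of all genes. At 2-fold as well, 4 were higher and 4 lower, against 3.43% and 2.66% of all genes. LAMB3, with 58.7% GC, was then at -1.15 (limma, adjusted p = 0.000188). COL17A1 was at -1.32, COL16A1 at -1.25 and COL13A1 at -0.45 (adjusted p = 0.000284, 0.0064 and 0.0342). COL4A5 was at 1.30, COL4A6 at 1.20, LAMA4 at 1.50 and COL12A1 at 0.59 (adjusted p = 8.36e-05, 0.00109, 0.00445 and 0.00355). COL7A1, with 63.9% GC, passed the test after this correction, at 1.02 (adjusted p = 0.00809).

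Other members no longer passed the test after the correction. LAMA5 and COL6A2, with 65.7% and 65.8% GC, were at -0.23 and -0.24 (adjusted p = 0.27 and 0.113 from limma). When exon length was corrected for as well, both passed, at -0.43 and -0.31 (adjusted p = 0.0236 and 0.028 from limma). COL6A1 was at -0.06, COL27A1 at -0.21, COL1A1 at -0.71 and LAMC3 at -0.74 (adjusted p = 0.688, 0.323, 0.223 and 0.117 from limma). LAMA2, with 40.2% GC, was at 0.17 (adjusted p = 0.28). COL18A1 and LAMB1 changed sign, to 0.04 and -0.02 (adjusted p = 0.828 and 0.909). Since the trend also separates the groups, its removal can take out changes that go with NE.

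**Figure D4:**
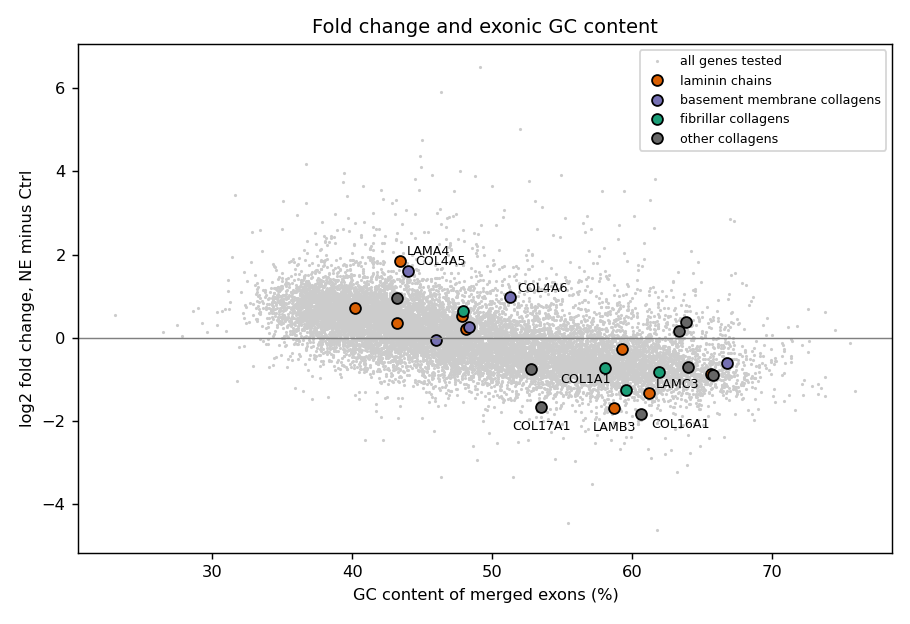
Log2 fold change (NE minus Ctrl) against the GC content of merged exons in percent, with all tested genes in grey and 26 members coloured by class. COL17A1 lies at 53.5% GC and -1.66 and COL4A6 at 51.3% GC and 0.98, while COL6A1 and COL6A2 lie at 64.0% and 65.8% GC and at -0.69 and -0.89.

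The 22 members under the minimum had means between 0.48 and 8.72 normalized counts. They were 6 fibrillar collagens, 3 basement membrane collagens, 12 other collagens and LAMB4. COL3A1, the chain of type III collagen, had 0 reads in every Ctrl library and 7, 7 and 8 reads in the NE libraries. It was at least 6.86-fold higher with NE, with Ctrl set at 3 reads over the group and the NE reads taken as counted. Without a minimum its adjusted p was 0.00294 from limma. LAMB4 had 0, 7 and 1 reads in the NE libraries and 0 in Ctrl, so that a single library held most of its reads.

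Genes that modify and secrete collagen moved in both directions. Of 19 genes for collagen modification and folding, 5 rose and 10 fell, with a median log2 fold change of -0.47, against 24.6% and 25.5% of all tested genes. After the GC correction 4 were higher and 3 lower, with a median of -0.01, against 13.0% and 19.0% of all genes. P4HA3, a catalytic subunit of prolyl 4-hydroxylase, had 71.2, 94.4 and 67.6 normalized counts in Ctrl and 264, 358 and 316 in NE libraries, a log2 fold change of 2.00 (adjusted p = 0.000124 from limma). PLOD2, a lysyl hydroxylase, and MIA3, which loads procollagen for export, rose by 1.20 and 1.09 on the log2 scale (adjusted p = 0.00026 and 0.000316 from limma). SERPINH1, the collagen chaperone HSP47, had 3806, 3794 and 3714 normalized counts in Ctrl and 1734, 1897 and 1889.7 in NE libraries, and fell by 1.04 on the log2 scale (adjusted p = 9.91e-05 from limma). After the GC correction the values were 2.10 for P4HA3, 0.47 for PLOD2, 0.58 for MIA3 and -0.57 for SERPINH1. Of 13 genes for procollagen processing and cross-linking, 9 were tested. LOXL1, LOXL2, LOXL3 and BMP1 fell and the other 5 did not pass the test, while 25.5% of all tested genes fell. After the GC correction LOXL1 (-0.30) and LOX (-0.71) were lower (limma, adjusted p = 0.043 and 0.0186), against 19.0% of all genes. LOXL2, LOXL3 and BMP1 no longer passed. The median of the 9 genes was -0.54 before and -0.15 after the correction.

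Among 9 partners of the basement membrane, 3 rose and 2 fell, with a median log2 fold change of 0.03. Of all tested genes, 24.6% rose and 25.5% fell. After the GC correction 5 of the partners were higher and the other 4 did not pass, with a median of 0.33, against 13.0% higher and 19.0% lower of all genes. HSPG2, the basement membrane proteoglycan perlecan, went from 0.27 (limma, adjusted p = 0.195) to 0.89 (adjusted p = 0.00187). PXDN went from -0.05 (limma, adjusted p = 0.724) to 0.33 (adjusted p = 0.0244). These 2 genes thus passed only after the correction. AGRN went from -0.52 to 0.13 and FBLN1 from -0.67 to -0.17, and neither passed after it. NID2, a nidogen that links laminin to type IV collagen, had 14.7, 28.0 and 0 normalized counts in Ctrl and 91.9, 88.1 and 108 in NE libraries. Every NE library lay far above Ctrl, and the change was 3.65 on the log2 scale (limma, adjusted p = 0.0155). It was 2.18 without Ctrl replicate 3 (adjusted p = 2.8e-05), with an adjusted p of 0.0605 without NE replicate 1 and 0.0565 without NE replicate 3. NTN4, a netrin that binds laminin, rose by 1.10 and FN1, fibronectin, by 0.77 on the log2 scale (adjusted p = 0.00076 and 0.000458 from limma). NID1 was at 0.03 (adjusted p = 0.84).

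Of 13 collagen and laminin receptors, 2 rose and 4 fell, with a median log2 fold change of -0.28, against 24.6% and 25.5% of all tested genes. After the GC correction 3 were higher and 4 lower, with a median of -0.18, against 13.0% and 19.0% of all genes. ITGA1, the α subunit of a collagen-binding integrin, had 147, 151 and 268 normalized counts in Ctrl and 599.8, 519 and 503 in NE libraries, a log2 fold change of 1.57 (adjusted p = 0.000652 from limma). ITGB4, the β4 subunit of the hemidesmosomal laminin receptor, had 3213, 3333 and 2968 normalized counts in Ctrl and 1837, 1531 and 1248 in NE libraries. It fell by 1.06 on the log2 scale (adjusted p = 0.000482 from limma), and by 0.92 without NE replicate 3. After the GC correction ITGA1 was at 0.89 (adjusted p = 0.0018) and ITGB4 at -0.43 (adjusted p = 0.0586). ITGA6, the partner of ITGB4, was at -0.32 (adjusted p = 0.0506) before and -0.74 (adjusted p = 0.000393 from limma) after the correction.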

How the data were processed

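RNA in 3 Ctrl and 3 NE libraries of NCI-H1299 cells was sequenced, and groups were taken from the sample records. The authors aligned reads to hg38 with Hisat2 2.0.5 and counted them per gene with featureCounts 1.5.0-p3. The methods name FPKM as the unit, whereas the deposited signal proved to be counts per gene, each divided by the size factor of its library. In each library 100% of values were whole multiples of the value of 1 read, within a relative tolerance of 0.001. Reads were recovered in this way, and FPKM were recomputed from them with the merged exon lengths of GENCODE v44. Limma 3.58.1 was fitted to log2(value + 1) with a trend, over genes whose mean reached 10 normalized counts. Calls needed an adjusted p under 0.05, and upregulated or downregulated genes also a log2 change of at least 1. For genes with few counts this scale can make fold changes too small, and 1 library at or near 0 can make them too large or change their sign. NID2, at 0 in Ctrl replicate 3, was at 3.65 on the log2 scale with that library and at 2.18 without it. The GC correction subtracted, in each library, a natural spline on GC content (5 degrees of freedom).

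EdgeR 4.0.16 and DESeq2 1.42.0 were run on the recovered reads as alternatives, besides other pseudocounts, minimums, scalings, a replicate block and each library left out. Members, lists and tests were chosen with earlier results of these data known. Results of some items are not reported here. Named were the members with an adjusted p under 0.05, the highest member per class, the type IV pairs COL4A1 with COL4A2 and COL4A5 with COL4A6, and partners past 2-fold; COL4A3, COL4A4, COL3A1, LAMB4, LAMA3, LAMB2, LAMC1, COL7A1, COL1A2, COL6A3, COL5A2, COL11A2, FN1, NID1, HSPG2, PXDN, AGRN, FBLN1, LOX, LOXL1, LOXL2, LOXL3, BMP1 and ITGA6 were named after their values were seen. The limma and edgeR calls were tested on simulated counts, and DESeq2 and the GC correction were not. Lower limits set by a count of 0 cover only the counting error of the group at 0, not that of the other group. Other error is not covered either, since reads carry no molecular identifiers.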

Additional observations from a re-analysis of the deposited data

How the results depend on the processing

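The cause of the changes given here was not tested. By adjusted p alone 6 members were higher and 12 lower with no fold criterion, and after the GC correction 4 were upregulated. The GC correction gave medians of -0.213 for the fibrillar collagens, 0.077 for the laminin chains and -0.152 for the other collagens, and reversed COL18A1 (0.035) and LAMB1 (-0.016). The GC and length correction gave medians of -0.348 for the fibrillar and -0.217 for the other collagens, and LAMB1 at -0.159. With no minimum the medians were 0.108 for basement membrane collagens, -0.284 for fibrillar collagens, 0.215 for laminin chains and 0.042 for other collagens. A minimum of 50 gave 0.981 for basement membrane collagens and 0.215 for laminin chains. Quantile normalization gave 0.067 for laminin chains, and edgeR and DESeq2 gave 0.066 and 0.071 for basement membrane collagens.

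With single libraries left out, 2 to 3 members were upregulated and 5 to 7 downregulated. The medians ran from -0.108 to 0.869 for basement membrane collagens, from -0.958 to -0.677 for fibrillar collagens, from -0.091 to 0.032 for laminin chains and from -0.918 to -0.665 for other collagens. COL4A5, COL4A6, LAMA4, COL12A1, LAMB3, COL13A1, COL16A1 and COL17A1 kept their direction and an adjusted p under 0.05 in each of 20 alternatives. With a replicate block 2 members were upregulated and 5 downregulated, and COL1A1 no longer passed (adjusted p = 0.0546 from limma). Libraries with the same number deviated from their group means with correlations of -0.163, 0.08 and -0.151, so the numbers give no sign of pairing. COL1A1 also did not pass with DESeq2 (adjusted p = 0.0597) or with no minimum (0.0651), nor COL27A1 without the trend (0.0602).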
